A study of Mus musculus with 24 samples.

Results

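Transcripts of 9 genes for enzymes that place or remove acetyl groups on histones were examined in mouse oocytes grown in vitro. The genes were taken as the rows of the deposited RNA-seq table whose name is Ep300, Crebbp, Kat6a, Kat6b, Kat2a, Hdac1, Hdac2, Hdac3 or Sirt1, which gave 1 row for each, 9 of the 16572 gene names of the table. They comprise 5 acetyltransferases (writers) and 4 deacetylases (erasers) and hold no dedicated reader of acetylated histones, so readers are described from lists of genes. The series holds 24 samples, of which the 4 RNA-seq libraries are used, and its 8 RRBS and 12 PBAT libraries, which measure DNA methylation, are not analysed here. The IV 5% O2 and IV 20% O2 groups, with 2 libraries each, are class IV oocytes, the largest class of the culture, labelled as strain C57BL/6 Barb and as 60 to 70 µm across, although the methods give a smaller size range for the IV 20% O2 oocytes. The methods describe the mice as a C57 Black6 background bred with SV129. Both groups were isolated from ovaries of mice aged 7 days and grown free of follicles, with theca-like cells of the primary culture as early support. The IV 5% O2 oocytes were cultured in 5% oxygen for 9 days, with more frequent changes of medium, and the IV 20% O2 oocytes in 20% oxygen for 14 days. The effects of oxygen, culture time, medium changes and any difference in oocyte size therefore cannot be told apart.

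Acetyltransferases move an acetyl group from acetyl-CoA to lysines of the histone tails, which loosens the contact of histones with DNA and makes binding sites for bromodomain and YEATS proteins. Zinc-dependent deacetylases remove the group by hydrolysis, most of them as part of the NuRD, SIN3, CoREST or NCOR complexes, whereas sirtuins use NAD. In growing oocytes histone acetylation increases up to the germinal vesicle stage and is largely lost at meiotic maturation, and Hdac1 and Hdac2 are known to compensate for each other in oocyte growth.

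The table gives 1 pooled value per gene and condition, so the differences carry neither an SD nor a p-value and were not checked on replicates. Intervals are exact 95% Clopper-Pearson intervals on reads recovered from the values, and they cover counting error in these columns only. Levels are in RPM, the reads of a gene set against the depth of its column. The depth implied by the value of 1 read was 132185258 reads for IV 5% O2 and 40875359 for IV 20% O2, and the columns are therefore not equally precise. A difference is the log2(RPM + 1) of IV 5% O2 less that of IV 20% O2, a scale that makes changes of low genes look smaller, and 14704 genes with a mean of 1 RPM or more were tested. The median difference was 0.26, and values relative to it are given where the direction of a difference depends on it. In bulk RNA, fewer cells of a type and less RNA per cell cannot be told apart. All 12 oocyte markers had reads in both columns, with sums of 9683 RPM in IV 5% O2 against 13529 RPM in IV 20% O2, and 11 of them lay below the median difference of all genes. Markers of other cells of the ovary had lower sums. The 11 theca and stroma markers found in the table, of 16 listed, summed to 46.8 RPM in IV 5% O2 against 18.7 RPM in IV 20% O2, where Vim, Dcn and Col1a2 had 0 reads. Cyp11a1, of steroid synthesis, had 2171 reads in IV 5% O2 and 5 in IV 20% O2, whereas Ptch1 (6.69 and 12.0 RPM) and Nr2f2 (0.787 and 1.69 RPM) were higher in IV 20% O2 and made up most of its sum. The 7 of 12 granulosa markers in the table summed to 42.9 and 29.8 RPM, with 0 reads of Fshr in IV 5% O2 and of Inha in IV 20% O2. For macrophages the sums over 4 of 8 markers were 24.9 and 22.6 RPM, with C1qb (934 and 59 reads) and Lyz2 (184 and 0 reads) higher in IV 5% O2 and Csf1r (9.28 and 15.0 RPM) higher in IV 20% O2. For endothelium the sums over 3 of 6 markers were 61.0 and 36.1 RPM, most of it Pecam1 (45.9 and 32.7 RPM), and the 1 erythroid marker of 6 had 1.32 and 1.57 RPM. The part of such cells in the differences below was not tested.

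Of the 9 genes, Ep300 and Crebbp had at least 2-fold lower levels in IV 5% O2 and none had at least 2-fold higher levels. Among all genes tested, 9.22% were at least 2-fold lower and 18.7% at least 2-fold higher. Hdac2 was the gene with the largest difference towards IV 5% O2. The other 6 genes lay between -0.38 and 0.42 on the log2 scale, and the intervals of Kat2a and Hdac3 held 0. The median difference of the 9 genes was -0.05, 7 of them lay below the median of all genes tested, and Kat6b and Hdac2 lay above it. All 9 passed the filter on low values in both columns.

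**Figure D1:**
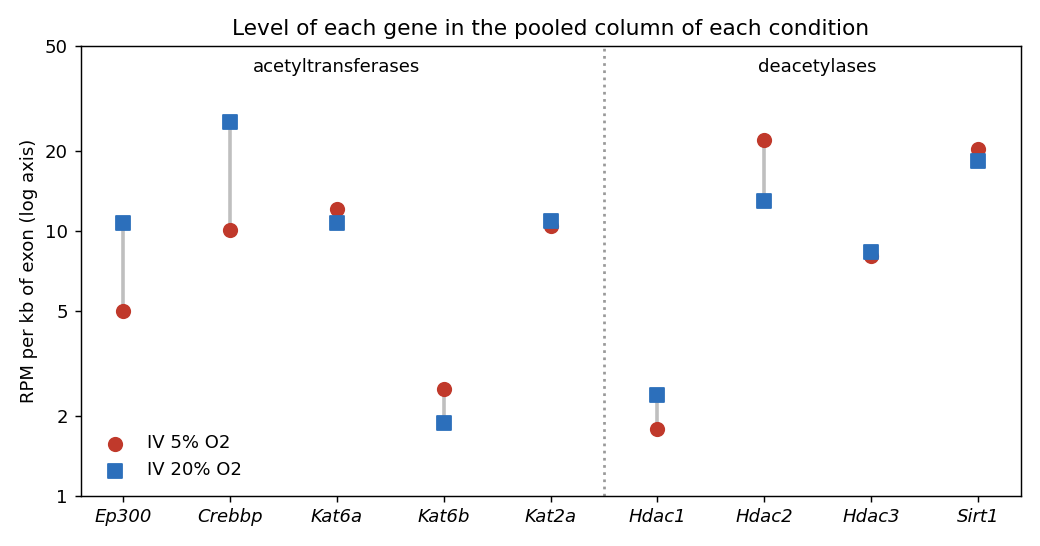
Level of the 9 genes in RPM per kb of annotated exon (vertical log axis), with a circle for the pooled IV 5% O2 column and a square for the pooled IV 20% O2 column, acetyltransferases on the left and deacetylases on the right. Ep300 and Crebbp stand higher in IV 20% O2 (10.7 and 25.8 against 4.97 and 10.1), Hdac2 stands higher in IV 5% O2 (22.1 against 13.0), and Kat2a, Hdac3, Sirt1 and Kat6a lie close together.

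The stretches just upstream of Ep300, Crebbp and Hdac2, the 3 genes with the largest differences, are printed here so that the letters ahead of the genes that were lower and of the gene that was higher in IV 5% O2 can be compared. They are the 250 bases before the gene start given in the table, read from the GRCm38 genome of RefSeq on the gene's strand, 5′ to 3′. None holds an annotated exon base. Capitals mark every match, on either strand, to the hypoxia element core (ACGTG or GCGTG), the GC box (GGGCGG) or the cAMP element core (TGACG), and neighbouring matches may run together.
Ep300, chr15:81585101-81585350, plus strand: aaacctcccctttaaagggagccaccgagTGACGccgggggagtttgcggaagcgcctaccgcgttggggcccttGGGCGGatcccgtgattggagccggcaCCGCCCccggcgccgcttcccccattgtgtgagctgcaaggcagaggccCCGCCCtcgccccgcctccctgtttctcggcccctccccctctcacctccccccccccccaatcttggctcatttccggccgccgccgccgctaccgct
Crebbp, chr16:4213998-4214247, minus strand: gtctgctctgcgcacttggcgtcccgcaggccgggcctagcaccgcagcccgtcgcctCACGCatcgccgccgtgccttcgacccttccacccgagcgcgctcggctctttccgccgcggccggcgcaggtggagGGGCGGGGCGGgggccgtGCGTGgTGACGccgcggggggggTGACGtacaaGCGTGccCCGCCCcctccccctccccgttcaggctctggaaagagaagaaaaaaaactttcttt
Hdac2, chr10:36974294-36974543, plus strand: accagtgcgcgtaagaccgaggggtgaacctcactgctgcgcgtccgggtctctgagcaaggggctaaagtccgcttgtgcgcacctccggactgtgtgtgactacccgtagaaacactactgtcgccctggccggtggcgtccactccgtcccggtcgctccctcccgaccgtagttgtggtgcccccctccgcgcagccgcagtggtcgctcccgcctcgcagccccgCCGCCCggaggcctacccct
All 3 stretches are rich in G and C (70.8% in Ep300, 71.2% in Crebbp and 68.8% in Hdac2), and they hold 24, 32 and 27 CG dinucleotides against a median of 12 over the 16555 genes for which such a window was read. The Crebbp stretch holds 3 hypoxia element cores, 3 GC boxes of which 2 overlap, and 2 cAMP element cores. In Ep300 there are 0, 3 and 1 of these, and in Hdac2 there are 0, 1 and 0. Among the genes with smaller differences, the Kat6a stretch holds 30 CG dinucleotides, 2 hypoxia element cores, 7 GC boxes and 0 cAMP element cores. The Kat6b stretch holds 3 CG dinucleotides and no match. At least 1 match was found in 49.1% of all windows for the hypoxia element core, in 46.4% for the GC box and in 22.9% for the cAMP element core, so these letters are common, and a match is a description of the sequence only.

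Ep300 and Crebbp encode a closely related pair of acetyltransferases that act as coactivators of many transcription factors and acetylate histones at enhancers and promoters. Ep300 (ENSMUSG00000055024.12, chromosome 15 of GRCm38 from 81585351 to 81652077, plus strand) had 70.9 RPM (9374 reads) in IV 5% O2 against 152 RPM (6226 reads) in IV 20% O2. Its level was thus 2.15-fold higher in IV 20% O2 (interval 2.08 to 2.22), with a log2 difference of -1.09, and 7.92% of the genes tested had a lower value. Crebbp (ENSMUSG00000022521.10, chromosome 16 from 4081328 to 4213997, minus strand) had 136 RPM (18027 reads) in IV 5% O2 against 349 RPM (14268 reads) in IV 20% O2. Its level was 2.56-fold higher in IV 20% O2 (interval 2.50 to 2.62), with a log2 difference of -1.35 and 5.64% of the genes tested below it. Relative to the median gene the log2 differences were -1.35 for Ep300 and -1.61 for Crebbp. Both genes therefore differed in the same direction, and Crebbp by more. With the values divided by exonic length before the pseudocount, Ep300 stood at -0.97, just inside 2-fold, and Crebbp at -1.27. Of the 12 oocyte markers, 3 were also at least 2-fold lower in IV 5% O2, Kit (-1.59), Zp2 (-1.31) and Zp3 (-1.12), and whether the differences of Ep300 and Crebbp go with these was not tested. Per kb of exon, Ep300 stood at 0.493 of Crebbp in IV 5% O2 and at 0.414 in IV 20% O2. With the longest transcript as the length these values were 0.588 and 0.494. The ratio of Ep300 to Crebbp does not depend on the scaling of the columns, and it was 1.19 times higher in IV 5% O2 (interval 1.15 to 1.24).

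Both transcripts are long, with 14273 exonic bases for Ep300 and 13540 for Crebbp. Over the 1330 genes tested with at least 10 kb of exon, the median difference was 0.13 and 7.89% were at least 2-fold lower in IV 5% O2. Within that class, 6.09% of the genes had a lower difference than Ep300 and 3.08% a lower one than Crebbp. Kat6b, also in the class, had 64.3% below it. Across the 14692 genes tested that have an annotated length, which are not independent replicates, Spearman's rho between exonic length and the difference was 0.007. No 100-base window of Ep300 and 0.184% of those of Crebbp occur again in the genome. A microRNA gene annotated on the same strand shares 0.378% of the exonic bases of Ep300.

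Kat6a and Kat6b encode the catalytic subunits of the MOZ and MORF complexes, which acetylate histone H3. Kat6a (ENSMUSG00000031540.13, chromosome 8 from 22859535 to 22943259, plus strand) had 111 RPM (14711 reads) in IV 5% O2 against 98.1 RPM (4008 reads) in IV 20% O2. The log2 difference was 0.18 as deposited (interval of the log2 ratio 0.13 to 0.23) but -0.08 relative to the median gene. Each of the 4 other scalings of the columns gave a value below 0, so no direction can be given for Kat6a. Kat6b (ENSMUSG00000021767.18, chromosome 14 from 21481434 to 21672478, plus strand) had 42.6 RPM (5632 reads) in IV 5% O2 against 31.6 RPM (1292 reads) in IV 20% O2. Its log2 difference of 0.42 (interval of the log2 ratio 0.34 to 0.52) was 0.16 relative to the median gene and lay between 0.11 and 0.43 under every alternative run. Per kb of exon Kat6a was 4.79 times the level of Kat6b in IV 5% O2 and 5.69 times in IV 20% O2, a change by a factor of 0.842 (interval 0.785 to 0.903). The annotated exons of Kat6b span 16826 bases and its longest transcript 7699, and with the longest transcript as the length these ratios were 2.21 and 2.62.

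Kat2a encodes GCN5, the catalytic subunit of the SAGA and ATAC coactivator complexes. Kat2a (ENSMUSG00000020918.14, chromosome 11 from 100704746 to 100712465, minus strand) had 36.2 RPM (4791 reads) in IV 5% O2 against 37.9 RPM (1549 reads) in IV 20% O2. The log2 ratio had an interval of -0.15 to 0.02, so that no difference was detectable as deposited at this depth, while relative to the median gene the difference was -0.32. Its paralogue Kat2b is not analysed here.

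**Figure D2:**
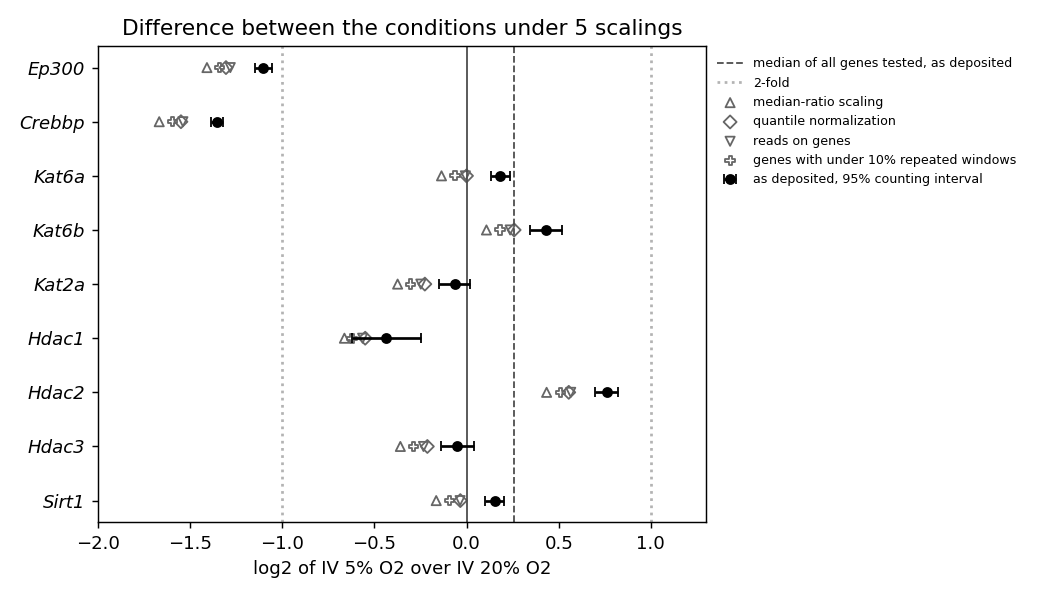
Log2 of the level in IV 5% O2 over that in IV 20% O2 for each of the 9 genes, with a filled circle and bar for the values as deposited and their 95% counting interval, open symbols for 4 other scalings of the columns, a dashed line at the median of all genes tested (0.26) and dotted lines at 2-fold. Ep300 and Crebbp lie left of the lower 2-fold line under all 5 scalings, Hdac2 and Kat6b stay right of 0, and Kat6a and Sirt1 cross 0.

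Hdac1, Hdac2 and Hdac3 encode class I deacetylases, Hdac1 and Hdac2 shared by the NuRD, SIN3 and CoREST complexes and Hdac3 the enzyme of the NCOR complex. Hdac2 (ENSMUSG00000019777.16, chromosome 10 from 36974544 to 37001889, plus strand) had 98.7 RPM (13046 reads) in IV 5% O2 against 58.3 RPM (2382 reads) in IV 20% O2. The level in IV 5% O2 was 1.69-fold that in IV 20% O2, with a log2 difference of 0.75 (interval of the log2 ratio 0.70 to 0.82) and of 0.49 relative to the median gene. Of the genes tested, 72.4% had a lower difference, so that a difference of this size was common in the table. Hdac1 (ENSMUSG00000028800.15, chromosome 4 from 129516104 to 129542713, minus strand) had only 6.13 RPM (810 reads) in IV 5% O2 against 8.29 RPM (339 reads) in IV 20% O2, the fewest reads of the 9 genes. Its log2 difference was -0.38 (interval of the log2 ratio -0.62 to -0.25) and -0.64 relative to the median gene. Of its 100-base exonic windows, 28 of 231 (12.1%) occur again in the genome, 27 of them in a processed pseudogene, Gm10093, on chromosome 17. Reads that fall there cannot be assigned with certainty, and the level of Hdac1 is uncertain to that extent. Hdac3 (ENSMUSG00000024454.16, chromosome 18 from 37935844 to 37955016, minus strand) had 32.6 RPM (4304 reads) in IV 5% O2 against 33.7 RPM (1378 reads) in IV 20% O2. The interval of its log2 ratio, -0.14 to 0.04, held 0, and relative to the median gene its difference was -0.31.

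The balance between the class I enzymes differed between the columns, and ratios within a column do not depend on how the columns are scaled. Per kb of exon, Hdac2 was 12.4 times the level of Hdac1 in IV 5% O2 and 5.41 times in IV 20% O2. The ratio was 2.29 times as large in IV 5% O2 (interval 2.00 to 2.63), the largest change among the 5 pairs compared. With only the windows that occur once in the genome as the length of each gene, Hdac1 stood at 0.0918 of Hdac2 in IV 5% O2 and at 0.210 in IV 20% O2. Hdac2 exceeded Hdac3 2.75 times in IV 5% O2 and 1.57 times in IV 20% O2, a change of 1.75 times (interval 1.63 to 1.89). Hdac1 stood at 0.221 of Hdac3 in IV 5% O2 and at 0.289 in IV 20% O2, a change by a factor of 0.765 (interval 0.663 to 0.883). The ratios within a column depend on the length used. With the longest transcript, Hdac2 was 10.1 times Hdac1 in IV 5% O2 and 4.41 times in IV 20% O2. Hdac2 was then 3.34 and 1.91 times Hdac3, and Hdac1 stood at 0.331 and 0.433 of Hdac3. Of the summed RPM per kb of the 4 class I genes, Hdac2 took 61.1% in IV 5% O2 and 47.3% in IV 20% O2. Hdac3 took 22.3% and 30.2%, Hdac8 11.7% and 13.8%, and Hdac1 4.93% and 8.74%. With the longest transcript as the length, Hdac2 took 59.0% and 45.4%, Hdac3 17.7% and 23.8%, and Hdac8 17.5% and 20.5%. Hdac2 was thus the main class I transcript in both conditions, with a larger share in IV 5% O2.

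Sirt1 encodes the best-studied nuclear sirtuin, which deacetylates histones and many transcription factors with NAD as cosubstrate. Sirt1 (ENSMUSG00000020063.16, chromosome 10 from 63319005 to 63381704, minus strand) had 109 RPM (14346 reads) in IV 5% O2 against 97.6 RPM (3988 reads) in IV 20% O2. As deposited its log2 difference was 0.15 (interval of the log2 ratio 0.10 to 0.20), and it was -0.11 relative to the median gene and below 0 under the 4 other scalings, so no direction can be given here either. An antisense gene overlaps 1.22% of its exonic bases, and the libraries keep the strand. Sirt1 took 41.1% of the summed RPM per kb of the 7 sirtuins in IV 5% O2 and 52.7% in IV 20% O2. The shares of Sirt7, a nucleolar sirtuin, were 21.3% and 12.0%.

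**Figure D3:**
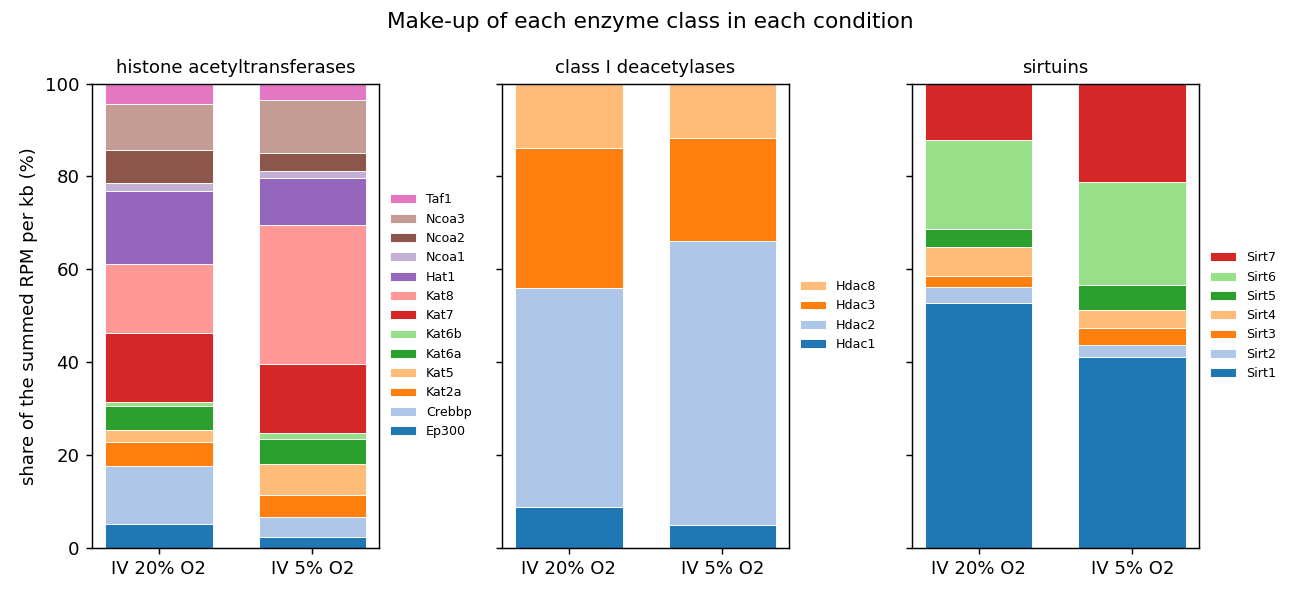
Make-up of each enzyme class as the share (in %) of its summed RPM per kb of exon in each pooled column, for 13 histone acetyltransferase genes, 4 class I deacetylase genes and 7 sirtuin genes, stacked to 100%. Crebbp and Ep300 take more of the acetyltransferase bar in IV 20% O2 (12.4% and 5.13% against 4.50% and 2.22%), and Hdac2 takes more of the class I bar in IV 5% O2 (61.1% against 47.3%).

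In RPM per kb of exon the order of the 9 genes differed between the conditions. Crebbp stood first in IV 20% O2 at 25.8, followed by Sirt1 (18.3), Hdac2 (13.0), Kat2a (10.9), Kat6a (10.7), Ep300 (10.7), Hdac3 (8.32), Hdac1 (2.41) and Kat6b (1.88). In that order the intervals of the ratio of Kat2a to Kat6a (0.961 to 1.08) and of Kat6a to Ep300 (0.962 to 1.04) held 1, so these neighbours did not differ beyond counting error. In IV 5% O2 the order was Hdac2 (22.1), Sirt1 (20.4), Kat6a (12.1), Kat2a (10.4), Crebbp (10.1), Hdac3 (8.03), Ep300 (4.97), Kat6b (2.53) and Hdac1 (1.78). Every pair of neighbours differed beyond counting error there, although Kat2a and Crebbp barely so, with a ratio of 1.03 (interval 1.001 to 1.068). Crebbp thus stood above Hdac2, Sirt1, Kat6a and Kat2a in IV 20% O2 and below all 4 in IV 5% O2. Levels per length rest on the annotated exons. With the longest transcript as the length, Crebbp was still first in IV 20% O2 and Hdac2 in IV 5% O2. However, Ep300 (15.9) then stood above Kat2a (11.6) and Kat6a (10.8) in IV 20% O2 beyond counting error. Kat2a also stood above Kat6a there, with a ratio of 1.08 (interval 1.02 to 1.14). With this length Crebbp stood above Kat6a and Kat2a in IV 5% O2, and Kat6b and Hdac1 could not be told apart in IV 20% O2.

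The 9 genes were set among the other enzymes of their classes, in lists chosen with earlier results of these data known, and no list was tested. Of 13 acetyltransferase genes tested, 2 were at least 2-fold lower in IV 5% O2, Ep300 and Crebbp, and 2 at least 2-fold higher, Kat5 and Kat8, with a list median of -0.04, beside 9.22% lower and 18.7% higher among all genes, so that neither count stands clear of the background. Kat5, the enzyme of the NuA4 complex, had 52.8 RPM in IV 5% O2 against 19.6 RPM in IV 20% O2, which is a log2 difference of 1.38. Kat8, the enzyme of the MSL and NSL complexes that acetylates histone H4, had 193 and 89.1 RPM, a difference of 1.11. Kat8 took 29.8% of the summed RPM per kb of the class in IV 5% O2 and 14.8% in IV 20% O2, whereas Crebbp and Ep300 took 4.50% and 2.22% in IV 5% O2 and 12.4% and 5.13% in IV 20% O2. Ncoa2, a nuclear receptor coactivator gene, stood at -0.74 and Hat1, which acetylates newly made histone H4, at -0.52. The remaining Kat7, Ncoa1, Ncoa3 and Taf1 lay between -0.24 and 0.31.

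None of the 9 zinc-dependent deacetylase genes tested was 2-fold apart in either direction, and their median was 0.15. Hdac11 (45.9 RPM in IV 5% O2 against 24.9 RPM in IV 20% O2, a difference of 0.86) stood above Hdac2, and Hdac10 (4.96 and 2.54 RPM, with 104 reads in IV 20% O2) beside it at 0.75. Hdac4, Hdac6, Hdac8 and Hdac9 lay between 0.04 and 0.28. Hdac5 and Hdac7 are not analysed here. Of the 7 sirtuins, Sirt7 (54.2 and 21.5 RPM, a difference of 1.29) and Sirt3 (10.9 and 4.92 RPM, a difference of 1.01) were at least 2-fold higher in IV 5% O2, and the median was 0.68, above the 0.26 of all genes, of which 18.7% were at least 2-fold higher. Over the alternatives run, from 0 to 2 sirtuins and from 1 to 2 acetyltransferases were at least 2-fold higher. Sirt1 lay below that median, as did Sirt2 (0.10) and Sirt4 (-0.14).

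The partner subunits of the 9 enzymes were counted in the same way, again beside 18.7% higher and 9.22% lower among all genes. Of the 21 SAGA and ATAC subunits that work with Kat2a, 2 were at least 2-fold higher in IV 5% O2, Taf6l (1.48) and Atxn7l3 (1.37), and 1 was at least 2-fold lower, Trrap (-1.60). Trrap, the large scaffold that SAGA shares with NuA4, had 74.1 RPM in IV 5% O2 against 227 RPM in IV 20% O2. The adaptor Tada2b stood at -0.90 and the list median at 0.31, and the share of the list that was higher lay below that of all genes. A further list holds 9 subunits of the complexes of Kat6a, Kat6b and Kat7. It does not tell these complexes apart, and Kat7 is not among the 9 enzymes. The scaffold Brpf1 was at least 2-fold higher (1.14), and Jade1 (-1.07) and Jade3 (-1.06) were at least 2-fold lower. Brd1 stood at 0.94, and the median was 0.43. Under each of the 4 other scalings 0 of these 9 genes were at least 2-fold higher, and with a pseudocount of 5 RPM or division by exonic length 0 were at least 2-fold lower.

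The complexes of the class I deacetylases were counted next. Of 13 SIN3 subunits tested, 8 were at least 2-fold higher in IV 5% O2, beside 18.7% of all genes, and the list median was 1.15. Brms1 had 67.2 RPM in IV 5% O2 against 16.3 RPM in IV 20% O2, a difference of 1.98, and Ing2, which binds methylated histone H3, had 20.3 and 4.89 RPM, a difference of 1.85. In the other direction Sap18 was at least 2-fold lower (33.2 and 91.4 RPM, a difference of -1.43) and Sap130 stood at -0.65. The count of 8 was 5 under each of the 4 other scalings. Of 11 NuRD subunits, Mbd2 (1.60) and Chd3 (1.26) were at least 2-fold higher, none was 2-fold lower, Rbbp4 (-0.27) and Gatad2b (-0.23) were lowest, and the median was 0.41. Of 9 CoREST and MiDAC subunits 3 were at least 2-fold higher, with a median of 0.83, and from 1 to 3 were over the alternatives run, the 1 with a pseudocount of 5 RPM. Elmsan1, the row for the MiDAC scaffold Mideas, stood at 1.91, Rcor1 at -0.49 and Rcor3 at 0.19. Trerf1, among the 3 of this list at least 2-fold higher, had 271 reads (2.05 RPM) in IV 5% O2 and 0 in IV 20% O2. It passed the filter of 1 RPM only through IV 5% O2, where it is high. With a mean of at least 5 RPM as the filter, 2 genes of this list were at least 2-fold higher. The NCOR complex, which holds Hdac3, had 1 of 5 genes at least 2-fold higher, Gps2, with 49.2 RPM in IV 5% O2 against 9.88 RPM in IV 20% O2, a difference of 2.21. Ncor1 (-0.03), Tbl1x (-0.29) and Tbl1xr1 (0.22) were closer together. Hdac1, Hdac2 and Hdac3 themselves stayed within 2-fold. Of the 38 genes of these 4 complex lists 14, Trerf1 among them, were at least 2-fold higher in IV 5% O2. That count was 13 with a mean of at least 5 RPM. It was 9 with median-ratio scaling, which also lowered the count over all genes from 2753 to 1700, and it ranged from 9 to 15 over the alternatives run.

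**Figure D4:**
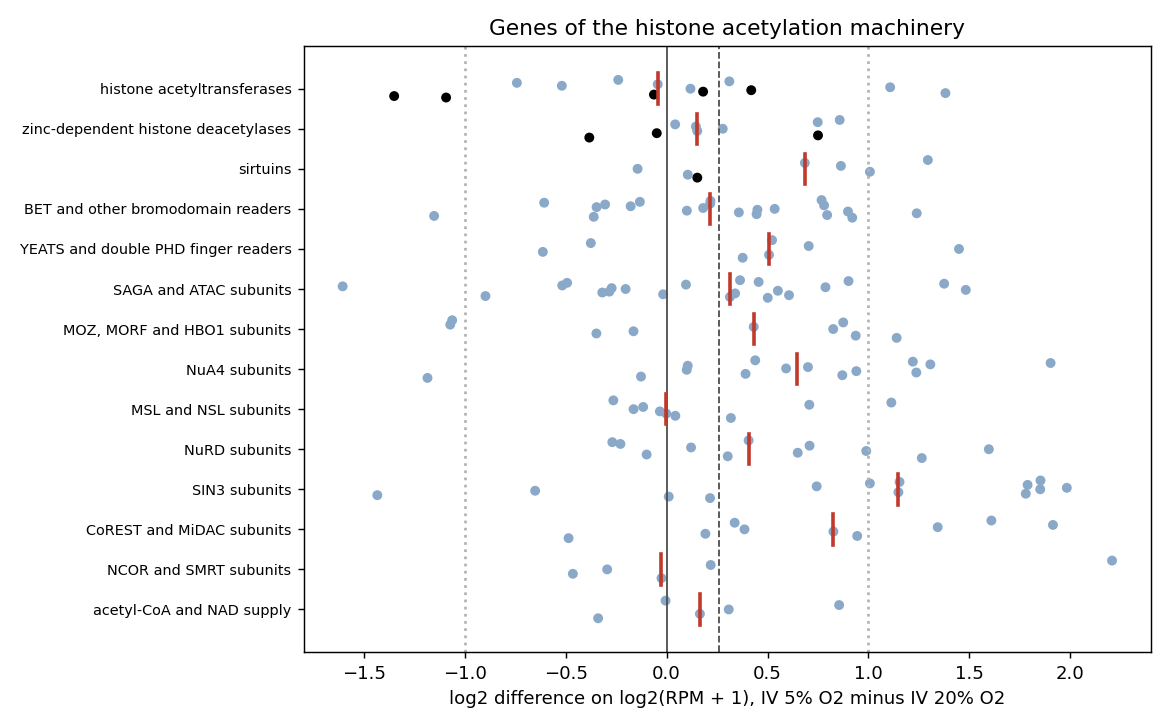
Log2 difference on log2(RPM + 1), IV 5% O2 minus IV 20% O2, of each gene tested in 14 lists, with the 9 enzymes in black, other genes in blue, the list median as a red bar, the median of all genes as a dashed line and 2-fold as dotted lines. The SIN3 list lies furthest to the right (median 1.15), and Ep300 and Crebbp are the leftmost points of the acetyltransferase list.

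Proteins that read acetylated lysines are bromodomain and YEATS proteins and the double PHD finger proteins. Of 21 bromodomain genes, 1 was at least 2-fold higher in IV 5% O2, beside 18.7% of all genes. Their median was 0.22, close to that of all genes. Brd9, a reader of a SWI/SNF complex, was the higher one at 1.24 (under median-ratio scaling 0 were), the BET gene Brd2 stood at 0.92 (228 RPM in IV 5% O2 and 120 in IV 20% O2), and Brwd1 stood at -0.61. Of 7 YEATS and double PHD finger genes, Yeats4 was at least 2-fold higher (65.1 and 23.2 RPM, a difference of 1.45). Dpf1 stood at 0.70, Dpf2 at -0.38 and Yeats2 at -0.61, and the median was 0.51. In neither reader list did the share that was higher exceed the 18.7% of all genes.

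Supply of the cosubstrates was covered by 5 genes, none of which was 2-fold apart. Acly, which makes acetyl-CoA from citrate in the cytosol and nucleus, had 32.0 RPM in IV 5% O2 against 40.8 RPM in IV 20% O2, a difference of -0.34. Acss2, which makes it from acetate, stood at 0.17, and the citrate carrier Slc25a1 at 0.31. Nampt, the rate-limiting enzyme of NAD salvage, had 40.5 and 21.9 RPM, a difference of 0.85, and Nmnat1, of the next step, had 1.58 and 1.59 RPM.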

How the data were processed

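RNA-seq libraries of class IV oocytes (2 per condition) were made strand-specific from RNA depleted of ribosomal RNA. The authors aligned the reads to GRCm38 with TopHat2 (2.0.9 in the submitters' processing notes), merged reads across exons in SeqMonk and deposited log2 values, 1 pooled column per condition. How libraries were combined is not given in the sources used here. The values are named RPKM and the methods describe a correction for feature length, but 99.9% and 100.0% of them were whole reads (within 0.05 reads) on 1 step per column, and they were treated as log2 RPM, uncorrected for length. Per column, 82.9% (IV 5% O2) and 72.8% (IV 20% O2) of the implied reads were on genes. The 0.9 of 1 read that stands for genes without reads was taken as 0 RPM. A count of 0 allows up to 3 reads, 0.0227 RPM in IV 5% O2 against 0.0734 RPM in IV 20% O2. Another value column (1), named for in vivo oocytes, matches none of the samples given and was not used.

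Rows were joined to GENCODE genes of GRCm38 by coordinates (16414) or name (158), and 19 of 16591 rows stayed unmatched. Repeated windows were 100 bases long, every 10 bases. Differences used a pseudocount of 1 RPM and genes averaging 1 RPM or more. The planned limma test needs a value per library and was not run. All 9 genes, any enzyme of the enzyme lists and, of the 11 other lists, the 2 highest and 2 lowest genes (all, if at most 6 were tested) were named, except results that are not reported here. Members and lists were chosen with earlier results of these data known. Alternatives were other pseudocounts, filters, scalings, summed rows and lengths. Scripts were tested on simulated data, with matplotlib 3.10.9, numba 0.67.0, scipy 1.17.1, pandas 2.3.3 and numpy 2.4.6 under Python 3.11.15.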

Additional observations from a re-analysis of the deposited data

How the results depend on the processing

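Other filters and summed rows (3 alternatives) could not change a value of the 9 genes. Of 63 values under the 7 others, 26 moved by no more than the width of their counting interval to one side, 29 moved by more and kept their sign (18 away from 0 and 11 towards 0) and 8 reversed, all under the 4 other scalings. As deposited, 2753 genes were at least 2-fold higher and 1356 at least 2-fold lower (67.0% higher). Median-ratio scaling gave 1700 and 2031 (45.6% higher), quantile normalization 1764 and 1866 (48.6%), scaling to the reads on genes 2426 and 1871 (56.5%), and scaling to genes with under 10% repeated windows 2418 and 2097 (53.6%). The median of all genes moved from 0.26 to -0.04, 0.06, 0.10 and 0.06 in that order. Kat6a was then at -0.14, -2.6e-05, -0.0061 and -0.062 and Sirt1 at -0.16, -0.034, -0.035 and -0.091. A pseudocount of 5 RPM gave 1202 higher and 706 lower genes, and moved the median of the 9 genes relative to all genes from -0.31 to -0.23. A mean of at least 5 RPM left 1691 higher genes among fewer genes tested. Division by exonic length gave 1609 and 899 genes, and 1 of the 9 genes at least 2-fold lower, since Ep300 then stood at -0.97. Over the alternatives Crebbp ranged from -1.67 to -1.27, Ep300 from -1.41 to -0.97 and Hdac2 from 0.43 to 0.76. No paired analysis was possible because each column pools its libraries and carries no replicate number, and leaving out a library could not be run for the same reason. The IV 20% O2 column, with 3.23 times fewer reads, limits low genes such as Hdac1 (339 reads).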

Other observations

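Subunits of the acetyltransferase complexes whose enzymes are Kat5 and Kat8 were not part of the comparison of the 9 enzymes. Of 14 NuA4 subunits, which work with Kat5, 4 were at least 2-fold higher in IV 5% O2 and 1 at least 2-fold lower, with a median log2 difference of 0.65. The count of 4 ranged from 1 to 4 over the alternatives run. Vps72, which binds the histone variant H2A.Z, had 86.0 RPM in IV 5% O2 against 22.3 RPM in IV 20% O2, a difference of 1.90, and the helicase Ruvbl2 stood at 1.31. Ep400, the large ATPase that shares its complex with Trrap, had 291 RPM in IV 5% O2 against 663 RPM in IV 20% O2, a difference of -1.18, and Epc1 stood at -0.13. Of 9 MSL and NSL subunits, which work with Kat8, Phf20 was at least 2-fold higher as deposited (281 and 130 RPM, a difference of 1.11) but under none of the 4 other scalings, Mcrs1 stood at 0.71, Kansl2 at -0.16 and Hcfc1 at -0.26, and the median was -0.0017. Among all genes tested, 18.7% were at least 2-fold higher and 9.22% at least 2-fold lower.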
